A study of Rattus norvegicus with 8 samples.

Results

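Eph receptors, ephrins, netrins with their receptors, Slits and Robos are the classic guidance genes of the nervous system. Their levels were examined in cultured rat oligodendrocyte precursor cells, the dividing glial cells from which myelin-forming oligodendrocytes arise. The members were the rows of the deposited expression table whose symbol names an Eph receptor, an ephrin, a netrin or netrin-G, an Unc5, Robo or Slit family gene, Dcc or Neo1. These were 41 of 32883 genes, each found once. RNA was sequenced in 8 libraries, 4 from male and 4 from female cultures, and sex was the only factor that the labels give. All cultures came from the cerebral cortex of Sprague Dawley rats 1 to 2 days old. The cells were raised as mixed glia in 20% fetal bovine serum, collected as the fraction that does not adhere, and kept for 4 to 5 days with PDGF and FGF at 10 ng/ml each and 2% B27. The labels do not say whether libraries of the same sex came from separate animals or litters. The p-values below therefore rest on the spread between libraries, which may be technical.

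Eph receptors are receptor tyrosine kinases that bind ephrins on the surface of neighbouring cells, and signals pass into both the receptor-bearing and the ephrin-bearing cell. EphA receptors mainly bind the lipid-anchored ephrin-A proteins and EphB receptors mainly bind the transmembrane ephrin-B proteins. Netrin-1 is a secreted cue that attracts through DCC and repels through UNC5 receptors, and Slits are secreted repellents that act through Robo receptors. In the developing brain and optic nerve, netrin-1 steers migrating oligodendrocyte precursors, and the same ligand and its receptors act later in process growth and paranode maintenance.

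Values are the authors' FPKM (fragments scaled by transcript length and library size). Levels are compared between genes on that scale, but the transcript lengths used are not given, so such comparisons are approximate. Values per library follow the order of their numbers, 1 to 4. How many fragments each library held is unknown. Steps between low values gave a depth relative to male 1 of 0.553 to 1 in the male and 0.304 to 0.983 in the female libraries. The summed FPKM of 6 precursor markers (Pdgfra, Cspg4, Olig1, Olig2, Sox10 and Ptprz1) ranged over 1971 to 2089 in male libraries and 2331 to 2495 in female libraries, all 6 were above 0 in every library, and 2 were called as higher in female cultures. Markers of other cell types were detected too. The sum of 7 microglial markers ranged over 31.1 to 43.4 in male libraries and 123 to 143 in female libraries, with 6 of the 7 called as higher in female cultures. The sum of 7 markers of differentiating oligodendrocytes ranged over 445 to 521 in male libraries and 633 to 808 in female libraries, with 3 of 7 called as higher in female cultures. The sum of 10 neuron markers ranged over 286 to 305 in male libraries and 244 to 350 in female libraries, with 5 of 10 called as higher in male cultures. Those 5 were Gad1, Gad2, Dlx1, Syt1 and Stmn2. The largest parts of the sum were Map2 (mean 150 FPKM in male and 169 FPKM in female libraries) and Tubb3 (63.9 and 65.9 FPKM), which were not called. The sum of 6 astrocyte markers ranged over 99.2 to 126 in male libraries and 82.9 to 97.1 in female libraries. Slc1a3 alone averaged 86.8 FPKM in male and 74.0 FPKM in female libraries, while Aqp4 and Aldh1l1 averaged under 1 FPKM in both. The neuron and astrocyte sums thus rest mainly on a few genes and do not by themselves show that these cells were present. Endothelial and fibroblast or mural markers were at or near 0, their sums reaching at most 0.448 and 2.79 FPKM. The part of any such other cells in the values below was not tested. In such bulk RNA fewer cells of a type and less RNA per cell cannot be told apart.

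The guidance repertoire was uneven. Of the 41 genes, 21 averaged 1 FPKM or more across all 8 libraries, 14 reached 5 FPKM and 6 reached 10 FPKM. Those 6 were Ntn1, Neo1, Unc5c, Unc5a, Ephb2 and Ephb3. Another 20 lay under 1 FPKM and were not tested, with Robo2 (mean 0.820 FPKM) and Slit1 (0.783 FPKM) the nearest below that limit and Ntn3 (1.09 FPKM) the nearest above it. Ntn5 and Robo4 were listed at 0 in every library. By family, the summed level was highest for the netrin receptors, at 65.7 ± 5.28 FPKM in male and 70.5 ± 7.38 FPKM in female libraries (SD, n = 4 each, here and below). It was lowest for the Slit ligands, at 1.42 ± 0.424 FPKM in male and 1.35 ± 0.400 FPKM in female libraries.

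**Figure D1:**
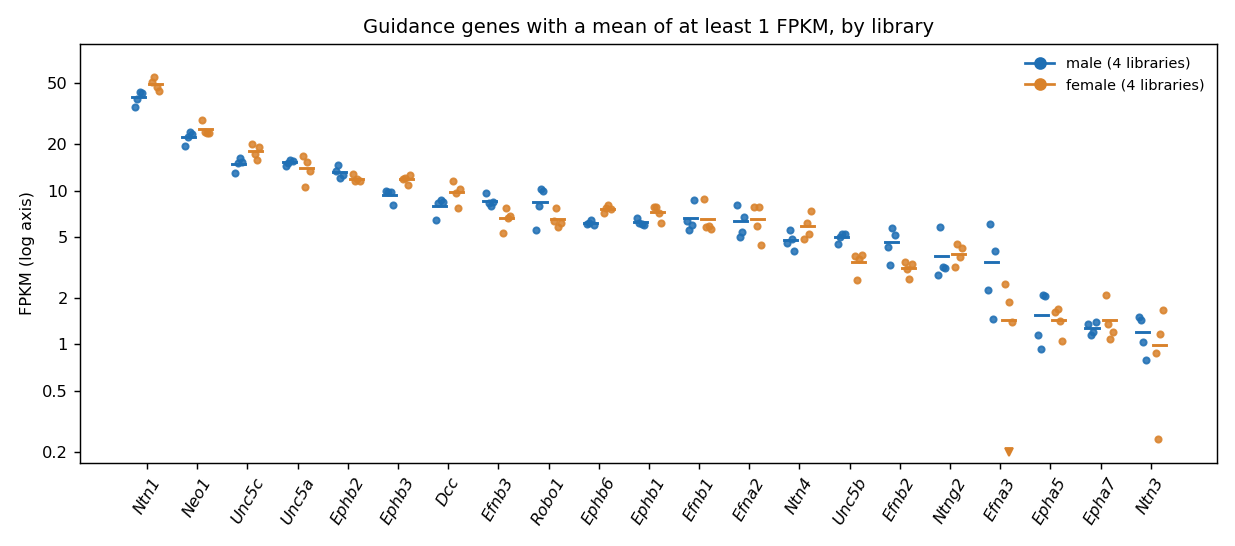
FPKM of the 21 guidance genes that averaged 1 FPKM or more, on a log axis, ordered by their mean; points are libraries, short lines are group means, and a triangle at the bottom is a library listed at 0. Ntn1 stands above all other members in all 8 libraries, at 35.0 to 54.7 FPKM, and Efna3 and Ntn3 scatter most.

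**Figure D2:**
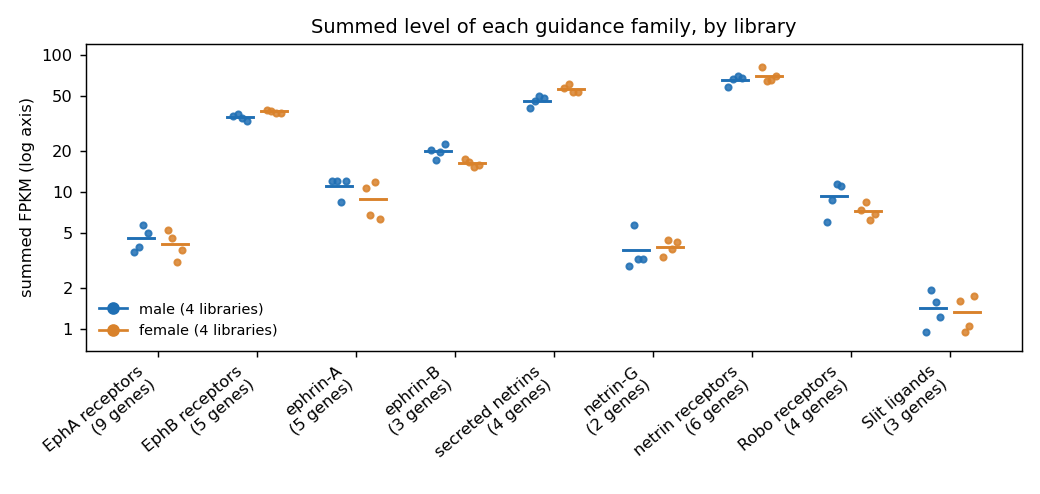
Summed FPKM of each guidance family on a log axis; points are libraries and short lines are group means. Netrin receptors, secreted netrins and EphB receptors are the most abundant families, EphA receptors sum to under 6 FPKM and Slit ligands to under 2 FPKM in every library.

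No guidance gene was called as different between male and female cultures. The test was limma with a mean-variance trend on log2(FPKM + 1), with Benjamini-Hochberg adjustment over all 11263 genes tested and a threshold of 0.05. It called 0 of the 21 tested members, where it called 6.04% of all tested genes (3.14% as higher in male and 2.89% as higher in female cultures). The adjusted p of the members ran from 0.109 to 0.953. At an unadjusted p under 0.05 there were 7 members, which is 33.3% of the members against 21.2% of all tested genes. Of these 3 had higher male values (14.3% of members against 11.3% of all genes) and 4 had higher female values (19.0% against 9.94%). Male and female values did not overlap for 5 of the 21 (23.8%), against 14.0% of all tested genes. The male libraries were the higher ones for 2 of these (9.52%, against 7.26% of all genes) and the female libraries for 3 (14.3%, against 6.77%). The median log2 difference, male minus female, was -0.03 for the members and -0.0038 for all tested genes. The median size of the difference, whatever its direction, was 0.26 for the members and 0.15 for all tested genes. In size 1 of the 21 members (4.76%) reached 0.5 on the log2 scale, against 8.89% of all tested genes.

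**Figure D3:**
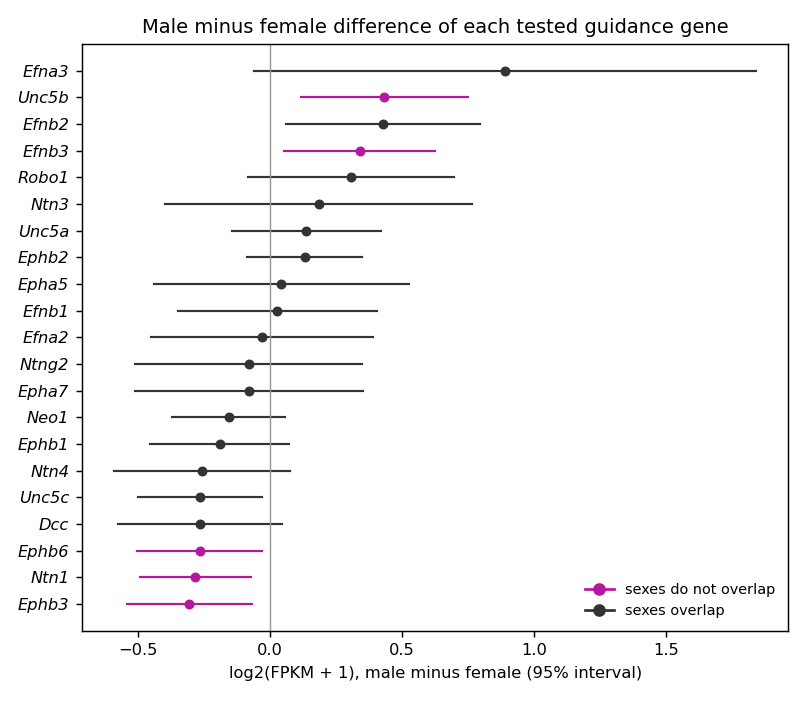
Male minus female difference of each of the 21 tested guidance genes on the log2(FPKM + 1) scale, with 95% intervals that are not adjusted for the number of genes. Differences run from -0.31 (Ephb3) to 0.89 (Efna3), and the 5 genes whose libraries do not overlap between the sexes are coloured.

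Netrin-1 (Ntn1, ENSRNOG00000003947) was the most abundant member, and its mean exceeded that of 81.0% of the tested genes. It stood at 35.0, 39.5, 44.0 and 43.4 FPKM in the male libraries and at 51.2, 54.7, 47.5 and 44.2 FPKM in the female libraries. The groups did not overlap, but the gap between the highest male and the lowest female library was under 1 FPKM. The log2 difference was -0.28 ± 0.10 (standard error, 95% interval -0.49 to -0.07), and it was not called (limma-trend adjusted p = 0.113). Ntn1 made up 83.0% to 89.9% of the summed FPKM of the secreted netrins in each library. Ntn4, a netrin of basement membranes, followed at 4.75 ± 0.613 FPKM in male and 5.92 ± 1.13 FPKM in female cultures (adjusted p = 0.368). Ntn3 was near the limit of the test, between 0.242 and 1.66 FPKM. Summed over its 4 genes the secreted netrin level ranged over 41.0 to 49.9 FPKM in male libraries and 53.3 to 61.1 FPKM in female libraries. The netrin-G genes encode membrane-anchored relatives that do not bind DCC. Of these Ntng2 was present at 2.84, 5.77, 3.17 and 3.15 FPKM in the male libraries and at 3.20, 4.49, 3.67 and 4.22 FPKM in the female libraries. The groups overlapped, with male 2 highest of all (log2 difference -0.08 ± 0.20, adjusted p = 0.862). Ntng1 stayed at or under 0.212 FPKM.

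Of 6 netrin receptors 5 averaged 1 FPKM or more, and bulk RNA does not show whether the same cells held them. Neogenin (Neo1, ENSRNOG00000006490), a relative of DCC that also binds repulsive guidance molecules, was the most abundant. It stood at 19.6, 22.5, 24.0 and 23.4 FPKM in the male libraries and at 28.7, 24.0, 23.6 and 23.9 FPKM in the female libraries. Female 1 stood clear of the other 7 libraries (log2 difference -0.16 ± 0.10, adjusted p = 0.398). Dcc itself stood at 7.96 ± 1.05 FPKM in male and 9.80 ± 1.57 FPKM in female cultures (log2 difference -0.27 ± 0.14, adjusted p = 0.317; -0.18 without male 1), so that Ntn1 was 5.11 ± 0.300 times as abundant as Dcc in male and 5.14 ± 0.897 times in female libraries.

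The Unc5 genes encode the repulsive netrin receptors, and 3 of the 4 were expressed. Unc5a stood at 15.3 ± 0.580 FPKM in male and 14.0 ± 2.65 FPKM in female cultures (adjusted p = 0.600). Unc5c stood at 14.9 ± 1.40 FPKM in male and 18.1 ± 1.93 FPKM in female cultures (log2 difference -0.26 ± 0.11, adjusted p = 0.185). In male cultures these 2 levels lay within their spread of each other. Unc5b (ENSRNOG00000000567) was the least abundant of the 3, at 4.47, 5.01, 5.19 and 5.24 FPKM in the male libraries and at 3.77, 2.62, 3.62 and 3.81 FPKM in the female libraries. All 4 male libraries lay above all 4 female ones. The log2 difference was 0.43 ± 0.14 (95% interval 0.12 to 0.75), the smallest p among the members, and it was not called (limma-trend adjusted p = 0.109). Unc5d stayed at or under 0.390 FPKM and was listed at 0 in 3 libraries.

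Because Unc5b and Unc5c lay in opposite directions, their ratio was taken within each library, where any scaling of a library cancels. It was chosen after the values were seen and is given with no test. Unc5c over Unc5b was 2.90, 3.02, 3.13 and 2.93 in the male libraries and 5.36, 6.66, 4.37 and 5.02 in the female libraries. The male ratios were close together and all lay below the female ones. Unc5b alone already separated the sexes, so this separation came largely with the choice of the pair. Other ratios taken did overlap between the sexes. They were Efnb3 over Efnb1 (0.971 to 1.53 in male and 0.609 to 1.32 in female libraries), Ntn1 over Neo1 (1.76 to 1.86 and 1.78 to 2.27) and Ntn1 over Dcc.

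**Figure D4:**
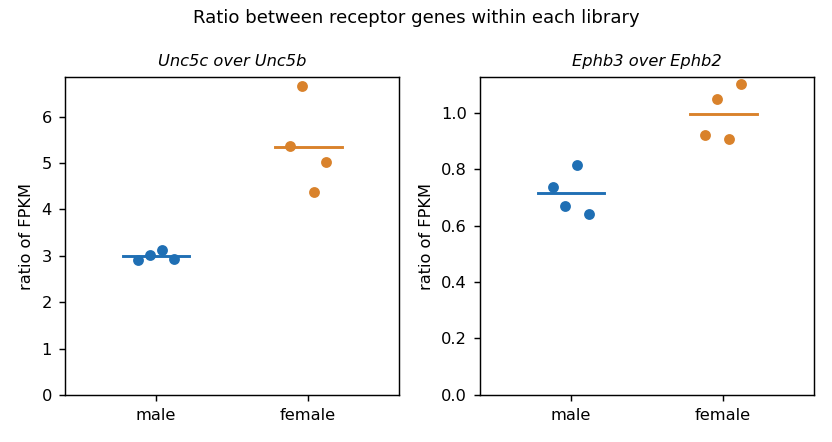
Ratios of FPKM between receptor genes within each library, Unc5c over Unc5b on the left and Ephb3 over Ephb2 on the right; points are libraries and lines are group means. Both ratios, chosen after the values were seen, are lower in all 4 male libraries (2.90 to 3.13 and 0.641 to 0.815) than in all 4 female libraries (4.37 to 6.66 and 0.909 to 1.10). Unc5b and Ephb3 already separate the sexes on their own. Ratios taken but not shown overlap between the sexes.

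EphB receptors outweighed EphA receptors. The 5 EphB genes summed to 35.1 ± 1.81 FPKM in male and 38.7 ± 0.936 FPKM in female libraries, and the 9 EphA genes to 4.62 ± 0.938 FPKM in male and 4.21 ± 0.968 FPKM in female libraries. Ephb2 (ENSRNOG00000012531) was the most abundant Eph receptor over the 8 libraries. It stood at 13.5, 14.7, 12.1 and 12.6 FPKM in the male libraries and at 12.9, 11.6, 11.9 and 11.5 FPKM in the female libraries, and the groups overlapped (log2 difference 0.13 ± 0.10, 95% interval -0.09 to 0.35, adjusted p = 0.499). Ephb3 (ENSRNOG00000031801) stood at 9.94, 9.84, 9.87 and 8.08 FPKM in the male libraries and at 11.9, 12.1, 10.8 and 12.7 FPKM in the female libraries. Its groups did not overlap (log2 difference -0.31 ± 0.11, 95% interval -0.54 to -0.07), and it was not called (adjusted p = 0.126). Ephb3 over Ephb2 was 0.716 ± 0.0771 in male and 0.995 ± 0.0952 in female libraries, so the means of the pair were nearly equal in female cultures.

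Ephb6 (ENSRNOG00000014367), a member that lacks kinase activity, was the second EphB gene without overlap. It stood at 6.08, 6.15, 6.44 and 6.02 FPKM in the male libraries and at 7.13, 7.73, 8.05 and 7.64 FPKM in the female libraries. The spread within each sex was narrow, and the log2 difference was -0.27 ± 0.11 (95% interval -0.50 to -0.03, adjusted p = 0.181). Ephb1 stood at 6.21 ± 0.283 FPKM in male and 7.26 ± 0.803 FPKM in female cultures (adjusted p = 0.399). Ephb4, known for its role in veins, had values of 0.0518, 0.0937, 0.0674 and 0.0931 FPKM in the male libraries, while every female library was listed at 0. Multiplied by the relative depth of its library, each of these male values came to 0.0518, the same step in every male library. Ephb4 was itself among the low genes from which depth was estimated, so this match is partly built in. The values lie at the floor of the data, and no difference between the sexes is read from them.

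Only 2 of the 9 EphA genes passed the limit of 1 FPKM. Epha5 (ENSRNOG00000002024) stood at 1.15, 0.926, 2.09 and 2.08 FPKM in the male libraries and at 1.63, 1.69, 1.42 and 1.06 FPKM in the female libraries. Its groups overlapped fully (log2 difference 0.04 ± 0.22, adjusted p = 0.940). Epha7 stood at 1.28 ± 0.118 FPKM in male and 1.44 ± 0.459 FPKM in female cultures (adjusted p = 0.862). Epha4, which binds ephrins of both classes, stood at 0.502 ± 0.279 FPKM in male and 0.374 ± 0.154 FPKM in female cultures. Epha3, Epha2 and Epha10 had means of 0.465, 0.326 and 0.221 FPKM over the 8 libraries, and Epha8, Epha1 and Epha6 of at most 0.0562 FPKM.

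All 3 ephrin-B genes were expressed. Efnb3 (ENSRNOG00000010320), whose protein is found in myelin and inhibits precursor differentiation in rat cell cultures, was the most abundant. It stood at 9.71, 8.30, 7.99 and 8.49 FPKM in the male libraries and at 5.33, 7.73, 6.68 and 6.83 FPKM in the female libraries. All male libraries lay above all female ones (log2 difference 0.34 ± 0.13, 95% interval 0.05 to 0.62), and it was not called (adjusted p = 0.160). Efnb2 stood at 4.61 ± 1.05 FPKM in male and 3.12 ± 0.333 FPKM in female cultures. Its groups overlapped through male 2, at 3.30 FPKM (log2 difference 0.43 ± 0.17, adjusted p = 0.168). Efnb1 lies on the X chromosome in the RefSeq table of assembly GRCr8, the only member that does. It stood at 6.65 ± 1.44 FPKM in male and 6.52 ± 1.498 FPKM in female cultures (log2 difference 0.03 ± 0.17, 95% interval -0.35 to 0.40, adjusted p = 0.953). The summed ephrin-B level was 17.1 to 22.4 FPKM in male and 15.2 to 17.5 FPKM in female libraries, overlapping through male 2.

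Among the ephrin-A genes Efna2 (ENSRNOG00000016203) stood at 8.09, 4.99, 5.39 and 6.73 FPKM in the male libraries and at 7.82, 5.92, 7.82 and 4.43 FPKM in the female libraries. The sexes covered nearly the same range (log2 difference -0.03 ± 0.19, adjusted p = 0.951). Efna3 had the largest difference of any member, 0.89 ± 0.43, and also the widest interval, -0.06 to 1.84. The difference was 0.51 without female 2, the library listed at 0, and 1.73 and 0.38 with pseudocounts of 0.1 and 5. Its values were 2.24, 6.08, 1.46 and 4.02 FPKM in the male libraries and 2.48, 0, 1.89 and 1.40 FPKM in the female libraries, which overlap, and it was not called (adjusted p = 0.269). Efna1, Efna3 and Efna4 follow each other on chromosome 2 of GRCr8 with 0 protein-coding genes between them, yet their means over the 8 libraries were 0.491, 2.45 and 0.258 FPKM. Efna5 was above 0 in 3 male libraries and in 1 female library, with at most 1.58 FPKM.

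The Slit and Robo families were represented mainly by a single receptor. Robo1 (ENSRNOG00000029614) stood at 5.54, 7.94, 10.3 and 9.95 FPKM in the male libraries and at 6.31, 7.67, 5.83 and 6.15 FPKM in the female libraries. Male 1 lay below every female library while male 3 and male 4 lay above them (log2 difference 0.31 ± 0.18, adjusted p = 0.361; 0.47 without male 1, adjusted p = 0.0850). Robo1 made up 85.3% to 93.6% of the summed Robo FPKM. Robo2 had a mean of 0.820 FPKM, Robo3, a receptor of commissural axons, was above 0 in 1 library, and Robo4 is the endothelial member listed at 0. Slit1 was the most abundant ligand, at 0.598, 0.912, 1.01 and 0.577 FPKM in the male libraries and at 0.969, 0.50, 0.656 and 1.03 FPKM in the female libraries. The sexes overlapped, and none of the 3 Slit genes reached a mean of 1 FPKM.

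Some members were lowest in male 1 and in female 3 within their own sex, at shares not far from those of all tested genes. Male 1 was the lowest male library for 8 of the 21 tested members (38.1%, against 32.4% of all tested genes). Female 3 was the lowest female library for 7 of them (33.3%, against 26.7%). Both held for 4 members (19.0%, against 12.8%). Over all tested genes the deviations of male 1 and female 3 from the means of their own sex had a correlation of 0.242 (11263 genes, which are not independent replicates). This was the largest correlation between any male and any female library, and the next was 0.0767. Male 1 and female 3 were also the deepest libraries of their sex, with a relative depth of 1 and 0.983. With both left out limma-trend again called 0 of the 21 members, with 5 at an unadjusted p under 0.05, while calls among all 11263 genes numbered 882, against 680 with all libraries.

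Promoter sequences were compared to see whether tested members and members under 1 FPKM differ in CpG content, a feature of many housekeeping and developmental promoters. The RefSeq sequences of GRCr8 held the 250 bases before the start for 34 members. They were missing for Ntn1, Unc5c and Efnb3 among the tested members, and for Slit1, Slit2, Epha4 and Unc5d among the others. The comparison therefore leaves out Ntn1, the most abundant member. In these the dinucleotide CG, which reads the same on both strands, was counted. The median count was 17 for 18 tested members, ranging from 8 to 43, and 14 for 16 members under the limit, ranging from 5 to 40. Among other genes it was 17 for 8296 tested and 5 for 5448 not tested. At least 10 CG were found in 77.8% of the tested members, 75.0% of the members not tested, 80.9% of the other tested genes and 31.0% of the other genes not tested, against 38.4% of all 27457 promoters of that length. The promoters of Neo1 and Epha8 were picked after their values were seen, and are shown because they are alike in CpG content and far apart in expression. Neo1 (mean 23.7 FPKM) held 43 CG and Epha8 (0.0562 FPKM) held 40. Each CG is in capitals. The Neo1 sequence lies at chr8:68322153-68322402 and that of Epha8 at chr5:154476967-154477216, both on the minus strand of GRCr8 and printed 5′ to 3′.
Neo1: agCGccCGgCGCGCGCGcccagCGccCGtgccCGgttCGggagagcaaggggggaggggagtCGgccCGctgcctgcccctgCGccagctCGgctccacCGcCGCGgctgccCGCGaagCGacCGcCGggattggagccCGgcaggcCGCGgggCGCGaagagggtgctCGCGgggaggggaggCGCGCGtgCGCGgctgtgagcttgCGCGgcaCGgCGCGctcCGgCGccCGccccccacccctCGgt
Epha8: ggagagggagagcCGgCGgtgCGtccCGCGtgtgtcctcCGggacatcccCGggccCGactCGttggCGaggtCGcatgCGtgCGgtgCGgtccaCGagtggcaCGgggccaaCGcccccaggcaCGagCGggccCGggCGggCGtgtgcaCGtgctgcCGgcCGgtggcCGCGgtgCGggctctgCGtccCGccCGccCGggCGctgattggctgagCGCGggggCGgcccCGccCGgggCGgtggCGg

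The partners and signalling genes of these receptors formed a second list of 56 genes, of which 55 were tested. Of these 2 were called, both higher in female cultures (3.64%, against 2.89% of all tested genes called in that direction), and 0 were called as higher in male cultures by limma, against 3.14% of all tested genes. At an unadjusted p under 0.05 there were 5 with higher male values (9.09%, against 11.3% of all tested genes) and 8 with higher female values (14.5%, against 9.94%). Rac1 encodes a small GTPase that acts below DCC and Eph receptors in remodelling of the actin cytoskeleton. It stood at 477, 483, 460 and 450.2 FPKM in the male libraries and at 515, 554, 547 and 551 FPKM in the female libraries, without overlap (log2 difference -0.21 ± 0.05, adjusted p = 0.0421). Dscaml1 encodes an adhesion protein related to DSCAM, which is itself a netrin receptor. It stood at 11.1, 11.2, 10.1 and 11.7 FPKM in the male libraries and at 18.5, 15.7, 12.9 and 15.1 FPKM in the female libraries, again without overlap (log2 difference -0.45 ± 0.12, adjusted p = 0.0447). Rac1 lost its call when male 2, male 3, male 4, female 2, female 3 or female 4 was left out (adjusted p up to 0.130). Dscaml1 lost it when any library other than female 3 was left out (up to 0.127), with no filter on low values and with relative depth as a covariate. Fyn, the kinase that links DCC to the cytoskeleton in oligodendrocytes, was singled out after its values were seen. It stood at 173 ± 6.99 FPKM in male and 203 ± 11.2 FPKM in female cultures and narrowly missed the threshold (log2 difference -0.23 ± 0.06, adjusted p = 0.0503). The median log2 difference of the 55 genes was -0.0059. Microglial and differentiation markers were also higher in these female libraries, as given above, and their part in the Rac1 and Dscaml1 values was not tested.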

How the data were processed

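The authors deposited FPKM values, 1 per gene and library, per the file headers. The submitters' processing notes name Trimmomatic and FastQC. For the aligner, the FPKM program, the build, the annotation and strand use, nothing is given in the labels or header. FPKM holds no counts, so no count test was run. Relative depth was the mode of ratios to male 1 among low values. On the scale log2(FPKM + 1), the 11263 genes averaging 1 FPKM or more were tested with limma 3.58.1 in R 4.3.3 (mean-variance trend, robust moderation, Benjamini-Hochberg over all tested genes, threshold 0.05). Differences are male minus female, and this scale understates those of low genes. Genes past the threshold are called. On simulated data with 200 of 11263 genes changed, 39.4% of changes of 0.5, 74.6% of 1 and 96.7% of 2 on the log2 scale were recovered, and 3.84% of calls were false. Fewer genes were changed there than the 680 called in the data, and no change under 0.5 was simulated. Only 1 of the 21 tested members reached 0.5, so recovery at the sizes seen in the others is unknown.

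Members, lists and tests were chosen with earlier results of these data known. Values in every library are given for members called or without overlap between the sexes among those tested, and for the most abundant of each family; other members have means or ranges, with further library values where useful. From the partner list called genes are named, and Fyn, which was chosen after its values were seen. Alternatives were other pseudocounts, filters and normalization, a replicate block, depth as a covariate and libraries left out. All 41 members matched the RefSeq gene table by symbol.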

Additional observations from a re-analysis of the deposited data

Results flagged for a closer look

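Of 42 groups of 4 libraries (21 tested members in each sex), 6 held a library whose gap to the others exceeded Dixon's 95% critical share of the range, where chance flags about 1 in 20 groups. Dcc was lowest in male 1, at 6.39 FPKM, against 8.32 to 8.68 in the other male libraries. Ephb3 was lowest in male 4, at 8.08 FPKM, against 9.84 to 9.94. Ntng2 was highest in male 2, at 5.77 FPKM, against 2.84 to 3.17. Efnb1 was highest in female 1, at 8.76 FPKM, against 5.60 to 5.89 in the other female libraries, and Neo1 also was highest in female 1, at 28.7 FPKM, against 23.6 to 24.0. Unc5b was lowest in female 2, at 2.62 FPKM, against 3.62 to 3.81. Female 1 and female 2 were the shallowest libraries, with a relative depth of 0.304 and 0.366, but male 1, flagged for Dcc, was the deepest, with 1. The part of depth in these flags was not tested. The rule was applied to the members only, so the share flagged among all tested genes is not known.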

How the results depend on the processing

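No member was called by limma under any of the 16 alternatives run, in which 4 to 8 members had an unadjusted p under 0.05, and 15 of the 21 tested members kept their direction in every alternative that tested them. At a mean of at least 5 FPKM 14 of the 21 were tested, and 7 were left out. The lowest adjusted p of a member was 0.0813, for Ntn1 after quantile normalization. Efna2, Efnb1, Epha5, Epha7, Ntn3 and Ntng2 lay in the opposite direction under at least 1 alternative. The median log2 difference of the members, -0.03, was -0.17 at a mean of at least 5 FPKM, 0.06 without male 2 and 0.06 without female 1. Male and female libraries share numbers in their titles, but libraries of the same number did not deviate together (r from -0.0851 to 0.0767 over 11263 genes). The number as a replicate block gave 397 calls among all genes, against 680, and 0 in the partner list, against 2 (adjusted p = 0.150 for Rac1 and 0.0816 for Dscaml1). Relative depth as a covariate gave 367 and 1, and no filter on low values left 1 call in the partner list. Without male 1 and female 3 there were 882 and 3. Leaving out 1 library gave 296 (male 3) to 808 (female 3) calls among all genes, with 315 when male 2, 359 when male 4, 411 when female 1 and 318 when female 4 was left out. In the partner list it gave 0 to 2 calls. The cause of these shifts was not tested. Without counts no interval for low values could be given, and shallow libraries measure low members with more error.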
